A study of Mus musculus with 2 samples.

Results

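Foxn1, Pax1, Pax9, Six4, Eya1, Hoxa3, Tbx1, Trp63 and Fezf2 encode factors that direct the formation or upkeep of the thymic epithelium. These 9 genes were taken from a list of names, and each name was matched to the platform's gene symbols, keeping probe sets that carry a single symbol. All 9 were found among the 19938 genes so measured. Each had 1 probe set, and 0 probe sets with several symbols named any of them.

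The data came from 2 Affymetrix microarrays of cortical thymic epithelial cells (cTECs), the stromal cells that support early and positively selected T cell precursors. The Tg array held RNA of Aire transgenic NOD mice, in which Aire was expressed from the promoter of Psmb11. That gene encodes β5t, the thymoproteasome subunit of cortical epithelium. The non-Tg array held RNA of the mice labelled as control. The source labels give 7 Tg and 5 non-Tg, read here as pooled animals, and both groups were NOD mice labelled day 7. The transgene is thus driven by a promoter of cortical epithelium, and each genotype was represented by a single pool on a single array. The comparison therefore has no replicate error, and no test was run on it.

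The thymus arises from endoderm of the third pharyngeal pouch, which it shares with the parathyroid gland. Hoxa3, Pax1, Pax9, Eya1 and Six4 act there as a regulatory network before Foxn1 is switched on, while Tbx1 patterns the pouches. Foxn1 then drives the genes that make the epithelium able to attract and instruct thymocytes, and mice without it, the nude mice, have no functional thymus. Trp63 maintains the growth capacity of the epithelium, and Fezf2 acts with or beside Aire in medullary epithelium to switch on genes of peripheral tissues.

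Short stretches of upstream DNA are shown to set a known Foxn1 motif beside the promoter that drives the transgene, a gene driven by Foxn1 and 1 of the 9 factors. The letters GACGC, the known core of the Foxn1 binding site, were searched on both strands in the 250 bases before each annotated start. Capitals mark GACGC or its reverse complement GCGTC. The windows, from RefSeq on GRCm38.p6, are those of Psmb11 (chr14:54625060-54625309, plus strand), of the chemokine gene Cxcl12 (chr6:117168285-117168534, plus strand) and of the pouch factor Hoxa3 (chr6:52213068-52213317, minus strand). They are given 5′ to 3′ and lie outside the annotated span of their own gene.
Psmb11: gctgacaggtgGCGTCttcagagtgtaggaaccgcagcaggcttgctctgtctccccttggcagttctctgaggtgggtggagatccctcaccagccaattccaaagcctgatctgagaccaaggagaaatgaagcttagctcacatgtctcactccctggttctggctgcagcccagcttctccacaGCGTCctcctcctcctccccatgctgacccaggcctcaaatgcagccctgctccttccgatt
Cxcl12: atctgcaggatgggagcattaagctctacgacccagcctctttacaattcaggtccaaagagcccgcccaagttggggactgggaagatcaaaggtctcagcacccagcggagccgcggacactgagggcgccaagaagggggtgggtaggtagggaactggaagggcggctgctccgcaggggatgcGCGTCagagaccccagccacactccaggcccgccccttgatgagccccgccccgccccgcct
Hoxa3: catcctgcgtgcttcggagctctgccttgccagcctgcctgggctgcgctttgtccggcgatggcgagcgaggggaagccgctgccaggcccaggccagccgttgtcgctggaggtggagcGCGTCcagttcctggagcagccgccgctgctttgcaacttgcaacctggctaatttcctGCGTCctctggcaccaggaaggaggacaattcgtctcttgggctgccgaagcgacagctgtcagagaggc

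The Psmb11 window held the letters at 239 and 62 bases before the start, and the Cxcl12 window at 62. In the Hoxa3 window they began at 129 and 70 bases before the start. Among genes known to be driven by Foxn1, 4 of 7 windows held them (57.1%), and among the transcription factors 4 of 9 windows (44.4%). The table had entries for 6 of the 8 genes driven by Foxn1 and for 7 of the 9 factors. Of all 32851 windows in the table, 22.6% held the same letters. The windows shown all hold them, whereas those of Foxn1, Pax9, Six4, Dll4 and Tbata held none. Tbx1 and Ccl25 each had a window with the letters and another without. Six4, Tbx1 and Ccl25 had alternative windows that were counted separately, and those of Six4 overlap. The difference between these shares was not tested. A match is a description of the letters and not of binding, and the stretch of DNA that drives the transgene was not given.

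Levels are deposited log2 values, and each difference is Tg minus non-Tg on the log2 scale. The lowest deposited value was 4.22 on both arrays. Values under a floor of 4.80, the 25th percentile of all values, were raised to it before a difference was taken. A gene passed the filter if it reached the median of its array, 5.43 in Tg or 5.45 in non-Tg, on at least 1 array. A gene was called higher or lower if it passed and differed by at least 2-fold, a log2 difference of 1. Of 11422 genes past the filter, 1.17% were called in either direction, 0.797% higher and 0.376% lower in Tg. That share is the background for each count of 2-fold calls given below.

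None of the 9 factors was 2-fold apart, so the count was 0 of 9 against the 1.17% of all genes past the filter. At that background a count of 0 among 9 genes is no feature of these factors. At a 1.5-fold threshold the count was again 0 of 9, where 7.86% of all genes past the filter were apart, 4.74% higher and 3.13% lower in Tg. All 9 passed the filter, 8 of them on both arrays. Their differences ran from -0.12 to 0.30, with 4 above 0 and 5 below and a median of -0.05, where the median of all genes past the filter was 0.01. The median size of the difference, whatever its sign, was 0.10 for the 9 factors and 0.19 for all genes past the filter.

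**Figure D1:**
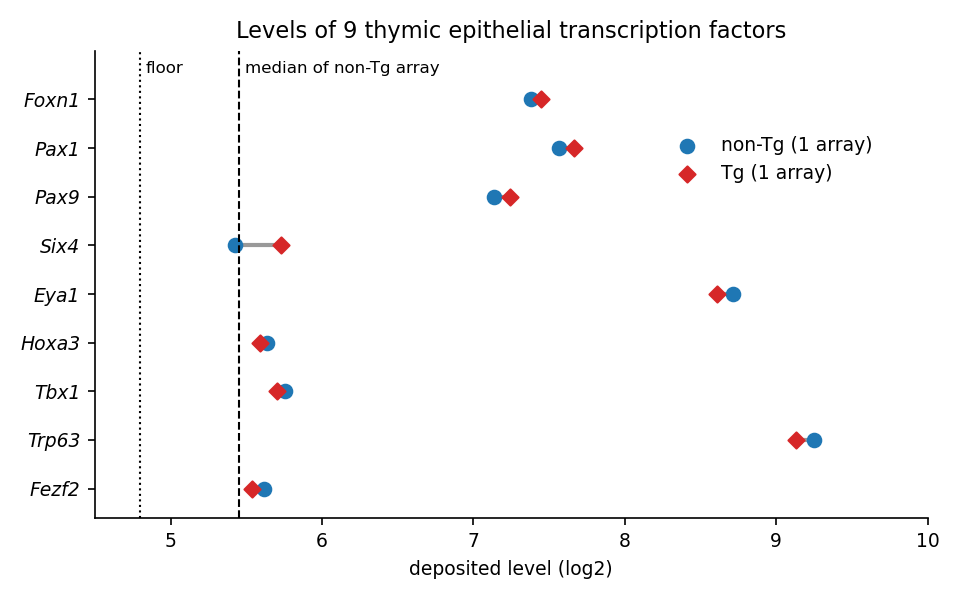
Deposited log2 level (horizontal axis) of each of the 9 transcription factors on the Tg array (red diamonds) and the non-Tg array (blue circles), 1 array each. The dotted line is the floor of 4.80 and the dashed line the non-Tg median of 5.45. The symbols of 8 factors lie within 0.15 of each other, and those of Six4 are 0.30 apart.

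Foxn1, the forkhead factor at the centre of the epithelial programme, had a level of 7.45 on the Tg array and 7.38 on the non-Tg array. The difference was 0.07 or 1.05-fold. These values lay 2.01 and 1.93 above the medians of the Tg and non-Tg arrays. The cells that carried the Aire transgene thus had a Foxn1 signal close to that of control cells. Among genes past the filter, 81.3% differed by as much as Foxn1 or more.

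Pax1 and Pax9 are close paralogs with a paired domain, and loss of either impairs the thymus. Pax1 had 7.66 on the Tg array and 7.56 on the non-Tg array, a difference of 0.10 (1.07-fold). Pax9 had 7.24 on the Tg array and 7.14 on the non-Tg array, also 0.10 apart (1.07-fold). Both were slightly higher on the Tg array.

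Eya1 is a phosphatase that serves as coactivator of homeodomain proteins such as Six4, and mice without it lack thymus and parathyroid. Its level was 8.61 on the Tg array and 8.71 on the non-Tg array, a difference of -0.11 (1.08-fold). Six4, a partner of Eya proteins in the pouch, had 5.73 on the Tg array and 5.43 on the non-Tg array. Its difference of 0.30 (1.23-fold) was the widest of the 9, and 29.9% of genes past the filter differed by as much or more. Six4 passed the filter through the Tg array alone, since its non-Tg value lay 0.03 below the median of that array. A gene that passes in this way is selected for being higher on the Tg array.

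Hoxa3, the homeobox gene without which neither thymus nor parathyroid forms, had 5.59 on the Tg array and 5.64 on the non-Tg array (difference -0.05). Tbx1, a T-box gene of the pharyngeal region whose product opposes thymic fate when expressed in the thymus primordium, had 5.70 on the Tg array and 5.75 on the non-Tg array (difference -0.05). The levels of both lay within 0.30 of the array medians. Both were marginally lower on the Tg array.

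Trp63 encodes p63, the master factor of stratified epithelium. It had 9.13 on the Tg array and 9.25 on the non-Tg array, a difference of -0.12 (1.08-fold). Fezf2, the zinc finger factor that controls a set of tissue-restricted genes in the medulla apart from those of Aire, had 5.54 on the Tg array and 5.61 on the non-Tg array. Its difference was -0.08 (1.05-fold). The Fezf2 levels were 0.11 and 0.16 above the medians of the Tg and non-Tg arrays.

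With a single array per genotype, 2 spreads within the data can be set beside these values. Over the genes past the filter the difference had an SD of 0.33, and its 25th and 75th percentiles were -0.17 and 0.20. Of the 9 factors, 8 lay between those percentiles and 1, Six4, did not. For 658 genes 2 or more probe sets passed, and the differences of the 2 with the highest means were compared. The SD of the disagreement, divided by the square root of 2, was 0.302, taken here as the spread of a single probe set. This spread pools all levels, so it is not matched to the level of any factor. The differences of 8 factors were well under it in size. That of Six4 was just under it as deposited, at 0.301, and over it at 0.32 with the arrays centred on their medians or quantile-normalized. Neither spread holds the variation between animals or pools.

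**Figure D2:**
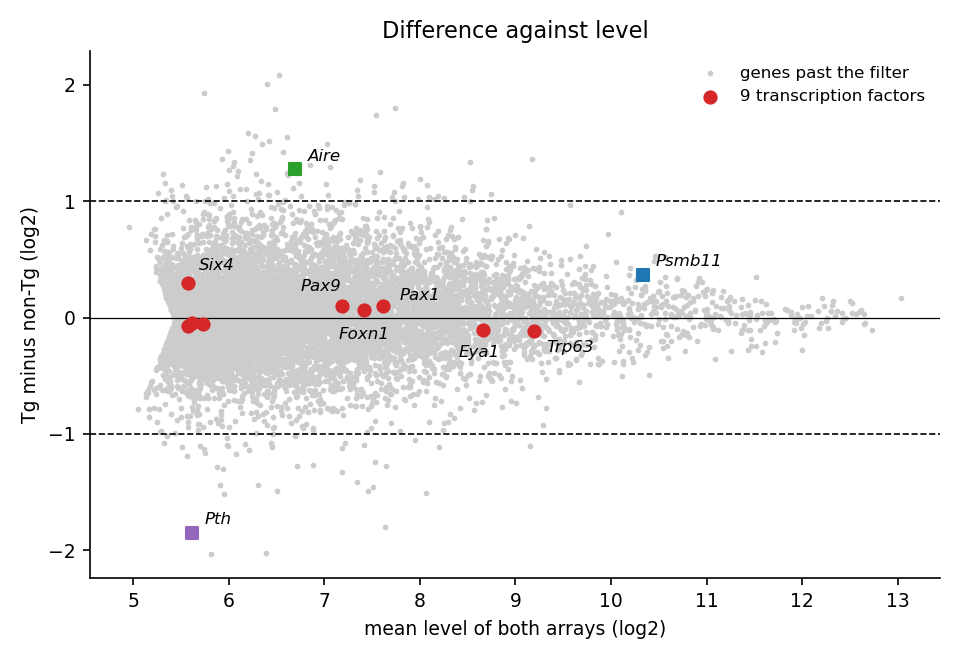
Difference between Tg and non-Tg (vertical axis, log2) against the mean level of both arrays (horizontal axis, log2) for 11422 genes past the filter (grey). The 9 factors (red circles; Hoxa3, Tbx1 and Fezf2 are the unlabelled cluster below Six4) lie between -0.12 and 0.30, inside the dashed 2-fold lines, while Aire (1.28) and Pth (-1.85) lie outside them and Psmb11 (0.37) inside.

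How much a fall could be seen depended on the level. The largest fall that the floor allowed was the non-Tg level minus 4.80. For Trp63 it was 4.45, for Eya1 3.92, for Pax1 2.77, for Foxn1 2.58 and for Pax9 2.34, so a 2-fold fall of these 5 genes could have been called. For Tbx1 it was 0.96, for Hoxa3 0.84, for Fezf2 0.82 and for Six4 0.63. These 4 factors could be called higher but not lower, as could 25.2% of the genes past the filter. In folds, their largest recordable falls were 1.94 for Tbx1, 1.79 for Hoxa3, 1.76 for Fezf2 and 1.55 for Six4. For Tbx1, Hoxa3 and Fezf2 a fall to the floor would thus have passed the 1.5-fold threshold, where none was called. A 2-fold fall of theirs could not have been recorded. Six4 could not have been called lower at either threshold. Its non-Tg value lay under the array median, so with a fall in Tg it would have failed the filter.

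**Figure D3:**
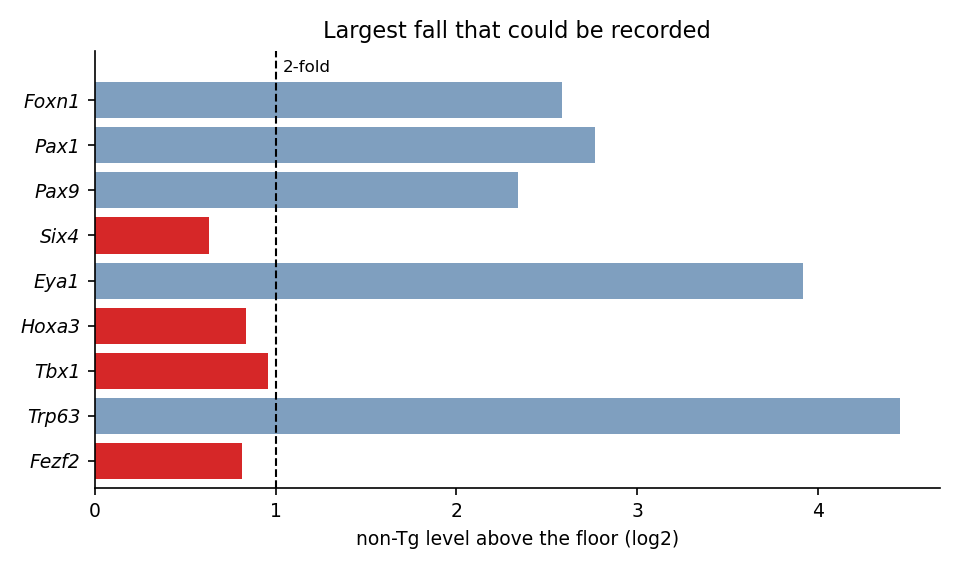
Non-Tg level above the floor (bars from 0, log2) for each of the 9 factors, which is the largest fall that could be recorded, with the 2-fold threshold as a dashed line. The 4 red bars (Six4, Hoxa3, Tbx1 and Fezf2) end between 0.63 and 0.96, short of it, and the 5 blue bars run from 2.34 to 4.45.

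Genes known to be driven by Foxn1 were set beside its own RNA. All 8 were measured, 8 passed the filter and 0 were 2-fold apart (1.17% of all genes past the filter were). The difference was above 0 for 7 and below 0 for 1, with a median of 0.11. Psmb11 had 10.51 on the Tg array and 10.15 on the non-Tg array (difference 0.37, 1.29-fold), the highest of the list. Whether its probe set also reads RNA of the transgene was not given. The Notch ligand gene Dll4, which commits precursors to the T lineage, had a difference of 0.25, and Prss16, a serine protease of cortical epithelium, 0.15. Cxcl12, which draws in precursors, had 0.12 and the chemokine gene Ccl25 0.06. Kitl, the growth factor for precursors that carry Kit, was the member below 0, at 7.81 on the Tg array and 7.89 on the non-Tg array (-0.08). Of these 8 genes, Psmb11, Prss16, Dll4, Ccl25 and Cd83 are also cTEC markers. All 11 cTEC markers had differences above 0, among them Ly75, Enpep, Krt8, Krt18, Ackr4 and Ctsl, which are not in this list. That sign was thus not particular to genes driven by Foxn1. Of all genes past the filter, 50.6% had differences above 0.

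Genes that p63 is known to activate in basal epithelium had 14 of 16 listed members measured, 13 past the filter and 0 called. Their differences ran from -0.34 to 0.37 with a median of 0.08, and 8 were above 0 and 6 below. The desmosomal cadherin gene Dsc3 had 8.96 on the Tg array and 8.59 on the non-Tg array (0.37), and the desmosomal plaque gene Dsp and the basal keratin gene Krt5 had 0.34 each. The laminin chain gene Lamb3 lay at the other end, with 6.55 on the Tg array and 6.89 on the non-Tg array (-0.34). Dst, which links keratin to hemidesmosomes, had 0.33, the integrin gene Itga6 0.23 and the desmosomal gene Perp 0.03. Beside Lamb3, the genes below 0 were Fgfr2 (-0.11), Itgb4 (-0.07), Jag2 (-0.05), Col17a1 (-0.02) and Krt15 (-0.28), which did not pass the filter.

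Genes tied to Fezf2 were mostly under the filter. Of its cofactor gene Chd4 and 8 genes used as Fezf2-dependent antigens, all 9 were measured, 4 passed the filter, 3 lay under the floor on both arrays and 0 were called. Chd4, a chromatin remodeller, had 8.91 on the Tg array and 8.60 on the non-Tg array (0.31). Among the antigens, the monoamine oxidase gene Maoa had 0.36 and the epidermal keratin gene Krt10 -0.07. The list median was 0.03.

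Aire itself, the transgene, was 2.43-fold higher, at 7.33 on the Tg array and 6.06 on the non-Tg array. It was the single call among 21 measured transcription factors of thymic epithelial subsets, of which 12 passed the filter (list median 0). Of all genes past the filter, 1.17% were called. Since Aire is the transgene, its call follows from the design and is no finding about this list. The grainyhead factor gene Grhl2, a regulator of epithelial junctions, differed by 0.01, and Ehf, an epithelial ETS factor, by 0.40 (5.86 in Tg, 5.46 in non-Tg). Pou2f3, the factor of tuft cells, had 0.23. Relb and Nfkb2, of the noncanonical NF-kB pathway that medullary epithelium needs, had -0.01 and 0.06.

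Partners and signals of the pharyngeal pouches had 22 of 25 listed genes measured, 15 past the filter and 0 called, with a median of -0.11. Eya4 and Foxi3 stood at the ends of the list, with differences equal to 2 decimals in size and opposite in sign. Eya4, a relative of Eya1, had 7.64 on the Tg array and 7.18 on the non-Tg array (0.46). Foxi3, a forkhead gene of the pharyngeal region, had 5.26 on the Tg array and 5.72 on the non-Tg array (-0.46). It passed through the non-Tg array alone, and was thereby selected for being higher there. The Hox cofactor genes Meis1 and Meis2 had -0.18 each and Pbx2 had 0.42. Isl1, a LIM homeodomain gene of pharyngeal endoderm, had 0.06, and Ripply3, a repressor partner of T-box proteins, -0.18.

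Among paralogs of the 9 factors, 32 of 35 were measured, 17 passed the filter and 0 were called (median -0.04). Six2, best known from kidney progenitors, was the lowest, at 6.61 on the Tg array and 7.31 on the non-Tg array (-0.70, 1.63-fold). Six2 and its relative Six4 therefore differed in sign, and within the Eya family Eya4 (0.46) and Eya3 (0.05) stood above 0 and Eya2 (-0.29) and Eya1 (-0.11) below. The Foxn1 relatives Foxn2 and Foxn3 had -0.32 and -0.05. The second probe set of Foxn3 gave 0.08. Of the p63 relatives, Trp73 had 0.10.

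Neighbours of Hoxa3 in the Hoxa cluster were mostly under the filter. Of 10 listed genes 9 were measured, 3 passed and 0 were called, and the median difference was -0.11. The widest of those that passed was Hoxa4, with 6.76 on the Tg array and 6.97 on the non-Tg array (-0.21), and the narrowest Hoxa7 (-0.11). Hoxb3, in the same position of another cluster as Hoxa3, had -0.18.

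The parathyroid shares its origin with the thymus, and its hormone gene was among the genes lower in Tg. Of 4 measured markers, 3 passed the filter and 1 was called, where 1.17% of all genes past the filter were. Pth, which encodes parathyroid hormone, had 4.59 in Tg, under the floor, and 6.65 in non-Tg, at least 3.60-fold lower in Tg. Chga, a secretory granule gene, had 5.40 on the Tg array and 5.79 on the non-Tg array (-0.39), and Gata3 had -0.27. Pth, Chga and Gata3 passed through the non-Tg array alone, so the filter itself favoured differences below 0 among them. Casr, the calcium-sensing receptor gene, did not pass and had 5.25 on the Tg array and 5.22 on the non-Tg array (0.02). The pouch factors upstream of both organs, Hoxa3, Eya1 and Six4, had differences of -0.05, -0.11 and 0.30. Gata3 is also expressed by thymocytes. Whether parathyroid tissue entered the pools was not tested.

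**Figure D4:**
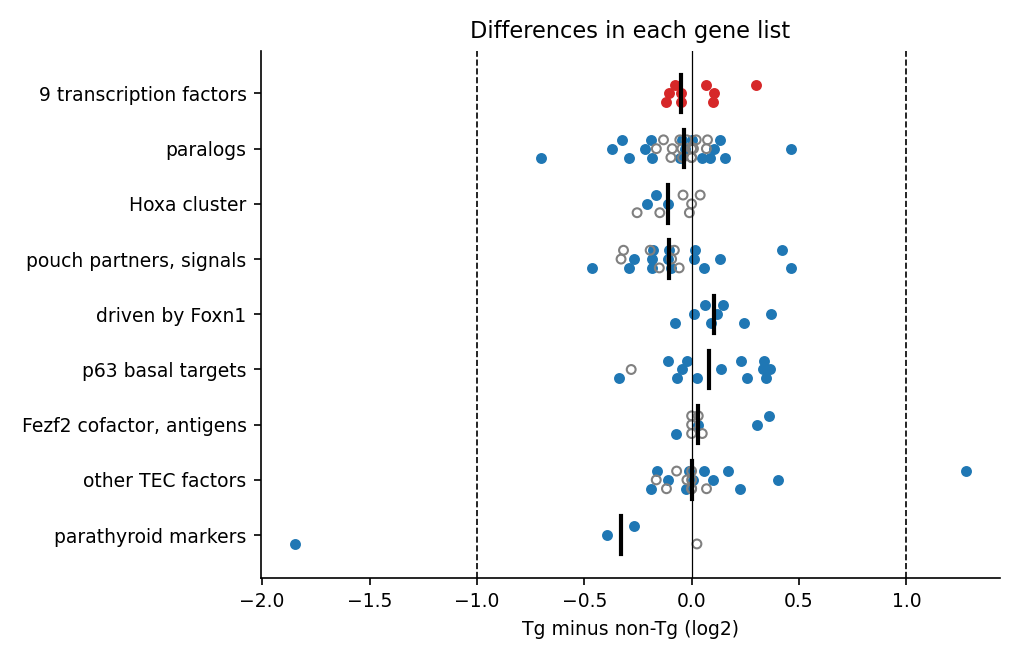
Difference between Tg and non-Tg (horizontal axis, log2) for every measured gene of 9 lists, with filled points for genes past the filter, open points for the rest, a black bar for the list median and dashed 2-fold lines. All 9 factors (red) lie between -0.12 and 0.30, and the points beyond the dashed lines are Aire and Pth.

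Markers of cell types were set beside the label of the cells. Their differences compare the 2 arrays and cannot check that label. All 11 cTEC markers passed the filter on these arrays, 0 were called, and their median difference was 0.14, with all 11 above 0. The widest was that of the scavenger receptor gene Ackr4 (0.57) and the narrowest that of Cd83 (0.01). Of 7 measured medullary markers 6 passed, with a median over the 7 of 0.14, 5 differences above 0 and 2 below. Aire was called, and it is counted in that median and among the 5. It is the transgene, so its difference cannot serve as a medullary marker here. Krt5 had 0.34, Cldn4 0.15, Krt14 0.14 and Cldn3 0.01, while Tnfrsf11a had -0.39. Thymocyte RNA was present on both arrays, with 9 of 10 measured markers past the filter. Their median was -0.05, from 0.18 for Cd4 to -0.49 for Cd3d, with 2 differences above 0 and 8 below. By level, Rag1 had 10.89 on the Tg array and 10.96 on the non-Tg array, and the medullary marker Krt5 10.73 and 10.39. Both were above the cTEC marker Psmb11 (10.51 and 10.15) and below the cTEC marker Ccl25 (12.64 and 12.58). The purity of the cells was not tested. In mesenchyme 5 of 8 markers passed (Postn 0.51, Col1a1 -0.05), and in endothelium 5 of 5 (Pecam1 0.48, Kdr -0.25). In myeloid cells 2 of 5 passed (Tyrobp -0.58, and C1qa -0.31, which passed on the non-Tg array alone), and in B cells 1 of 3 (Pax5 -0.04). Fewer cells of a type and less RNA per cell cannot be told apart in such pools, and the part of other cells in the levels of the 9 factors was not tested.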

How the data were processed

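Expression was measured on 2 arrays, 1 of Tg and 1 of non-Tg cTECs. Per the labels' protocols, 400 pg of total RNA was amplified and 5.5 µg of cDNA was labelled with biotin. The values are the authors' deposited log2 levels of 28856 probe sets on each array. The log2 scale was inferred from their range (4.22 to 13.7). The sources used here name no background correction, normalization or genome build. Of the probe sets, 21789 carried 1 gene symbol in GEO's platform annotation. Where a gene had several, the probe set with the highest mean was taken.

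Floor, filter and the 2-fold rule are described with the results. The 9 factors and 15 further lists (170 distinct genes, 155 measured) were chosen with earlier results of these data known. In each list the genes named by rule were those called, or else the highest and lowest past the filter. Other names were chosen after their values were seen. The 15 remaining genes were not analysed here. Batches could not be examined. Python 3.11.15, numpy 2.4.6, pandas 2.3.3 and matplotlib 3.10.9 were used, and the calls were tested on simulated data.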

Additional observations from a re-analysis of the deposited data

How the results depend on the processing

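The 7 alternatives were no floor, a floor at the 50th percentile, quantile normalization, centring on array medians, averaging of probe sets, a 1.5-fold threshold and no filter on low values. The first 5 gave 45 differences for the 9 factors, from -0.15 to 0.32, with 0 changes of sign, and 0 factors were called under any of the 7. Many of these values could not move. Each factor has 1 probe set and lies above the floor, so removing the floor or averaging probe sets returned the same differences. The higher floor changed only Six4, to 0.29. All 9 passed the filter, so dropping it could add no call. Quantile normalization and centring were the settings that could shift every factor. At 1.5-fold, 541 genes were higher and 357 lower in Tg (7.86% of genes past the filter), and the count among paralogs became 1, Six2. With the floor at the 50th percentile the Pth difference was -1.20, since a higher floor shortens it. List medians moved by at most 0.11. No paired analysis was possible because each genotype has 1 array, and for the same reason no replicate could be left out. Signal near the lower bound of the values limits what can be said of Six4, Hoxa3, Tbx1 and Fezf2.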

Other observations

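Wider families of transcription factors, taken by symbol after the values had been seen, held no call. They include Foxn1, Pax1, Pax9, Six4, Eya1, Hoxa3, Tbx1 and paralogs already described. The 11 families were the Fox, Hox, Sox, Klf, Gata, Irf, Tbx, Pax, Eya and Lhx genes and the relatives of Six4. In them 168 genes were measured and 95 passed the filter. Of those, 0 were 2-fold higher or lower, beside 1.17% of all genes past the filter. At that share a count of 0 among 95 genes is no feature of these families. Foxm1, a forkhead factor of the cell cycle, had the highest difference in the Fox family, 0.78 (6.50 in Tg, 5.72 in non-Tg), and Foxi3, which passed through the non-Tg array alone, the lowest. Among the Hox genes 9 of 37 passed, and Hoxd8 was the highest at 0.45. In the Irf family of interferon regulatory factors, Irf2 had 0.60 (7.83 in Tg, 7.23 in non-Tg) and Irf3 -0.47 (5.94 in Tg, 6.42 in non-Tg). Klf7 was the lowest of the Klf genes, at 6.41 in Tg and 7.01 in non-Tg (-0.60), and Sox12 the lowest of the Sox genes, at 5.56 in Tg and 6.10 in non-Tg (-0.54).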
